A study of Homo sapiens with 3 samples.

Results

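The peaks described here are binding sites of RUNX2 that overlapped a binding site of its partner CBFB and had the higher score of the pair. They were found by ChIP-seq, the sequencing of chromatin fragments recovered with an antibody, in untreated SAOS2 cells, a human osteosarcoma line that lacks p53 and was used below passage 20. One library was made with a custom RUNX2 antibody, 1 with a commercial CBFB antibody and 1 from input DNA without antibody, which was not analysed here. All libraries came from this single line, with 1 library per antibody, so there are no replicates, no p-value was computed, and a binding preference cannot be told apart from a difference between the antibodies or the libraries. The deposited lists held 9941 RUNX2 peaks and 27246 CBFB peaks. On chromosomes 1 to 22 and X, 9354 RUNX2 peaks shared at least 1 bp with a CBFB peak. Of these, 425 had a RUNX2 score above the highest score among the overlapping CBFB peaks. This is a share of 4.54% of the shared peaks (exact Clopper-Pearson 95% interval 4.13 to 4.99), and it is also the share called, since the peaks were chosen by the scores of both lists. The 425 are called RUNX2-higher peaks and the remaining 8929 are called other shared peaks. The paper reports that a clearly smaller share of RUNX2 peaks overlapped CBFB peaks. How it counted overlaps is not given in the sources used here, and the cause of the difference was not tested. Both classes compared below rest on the overlap found here in the deposited lists.

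RUNX2 is the transcription factor that directs osteoblast formation. Its Runt domain binds a short DNA core, read as TGTGGT on a strand or ACCACA on the opposite strand. CBFB has no DNA contacts of its own. It binds the Runt domain and strengthens its hold on DNA, so that CBFB is recovered at RUNX sites through RUNX1, RUNX2 or RUNX3. The peak score was read as the MACS score, -10 times log10 of the peak's p-value. It grows with library depth, which is unknown, so a RUNX2 score above a CBFB score places a peak in a rank class among shared peaks and does not say that more RUNX2 than CBFB was present. All intervals below cover counting error or the spread over peaks only, and peaks are not replicates.

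Sequences of RUNX2-higher peaks from the hg19 reference show the range of sites. First come windows around the RUNX core nearest to the midpoint, all on the + strand, with the core in capitals. They were taken from peaks with a core within 100 bp of the midpoint and a high RUNX2 score, and were chosen after the values were seen. The windows lie in introns of BCL9, CRYBG1 and the long non-coding RNA gene LINC01934, and between genes on chromosome 5, where the nearest start, that of the pseudogene RPS23P5 by which the peak is named, was over 100 kb away.
BCL9, chr1:147016870-147016915: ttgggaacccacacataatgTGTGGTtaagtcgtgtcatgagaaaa
CRYBG1, chr6:106937080-106937125: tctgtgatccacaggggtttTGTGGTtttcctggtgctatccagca
LINC01934, chr2:182140603-182140648: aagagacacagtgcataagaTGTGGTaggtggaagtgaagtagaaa
RPS23P5, chr5:13354944-13354989: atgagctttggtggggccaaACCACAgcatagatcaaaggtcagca

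A further set are the 80 bases before the starts of genes for U1, the small nuclear RNA (snRNA) that recognises 5′ splice sites. Each is printed in the direction of the gene. Capitals mark the 33 bases that were equal in all 13 U1 copies compared, all under RUNX2-higher peaks. RNVU1-8, which is annotated as shorter, and RNU1-60P, whose sequence differed, were left out.
RNU1-2, + strand, chr1:17222395-17222474: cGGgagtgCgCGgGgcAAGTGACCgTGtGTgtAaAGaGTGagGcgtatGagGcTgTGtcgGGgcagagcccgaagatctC
RNVU1-7, - strand, chr1:145969434-145969513: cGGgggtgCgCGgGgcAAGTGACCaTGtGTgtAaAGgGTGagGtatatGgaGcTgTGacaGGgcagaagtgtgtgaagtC
RNVU1-18, - strand, chr1:149224222-149224301: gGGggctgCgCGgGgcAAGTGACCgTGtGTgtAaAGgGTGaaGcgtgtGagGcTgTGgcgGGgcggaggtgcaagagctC
RNU1-27P, + strand, chr14:35015840-35015919: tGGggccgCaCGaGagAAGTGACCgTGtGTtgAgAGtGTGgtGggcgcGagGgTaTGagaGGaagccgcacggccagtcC

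Most RUNX2-higher peaks were RUNX2 peaks of middling score that sat on weak CBFB peaks. Their RUNX2 scores ran from 51.6 to 2623 with a median of 94.5, against a median of 86.4 in the other shared peaks. Their CBFB partners had a median score of 72.1, against 297 for the partners of the other shared peaks. In 116 of the 425 the CBFB score was under 60, close to the lowest score of 50 in the lists. As ranks within the whole lists, the RUNX2 scores had a median percentile of 58.3 and 51.9 in RUNX2-higher and other shared peaks, and the CBFB scores 22.9 and 81.6. These values describe the selection, which used the scores.

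The ratio of the RUNX2 to the CBFB score had a median of 1.22 in RUNX2-higher peaks and a maximum of 6.90. It reached 1.5 in 103 peaks, 2 in 29 and 3 in 11. The peaks closest to the limit differed by less than a score unit. Just inside it were peaks at the start of the long non-coding RNA gene ENSG00000290993 (RUNX2 score 71.49, CBFB score 71.41), at the start of MIX23 (77.34 and 77.25) and in an intron of LINC03016 (65.95 and 65.82). Just outside it was a peak in an untranslated exon of KLRC1 (173.21 and 173.29), and 2 peaks had equal scores at the highest value of 3100, in an intron of BAHCC1 and at the start of the chromosome 5 assembly. Each RUNX2-higher peak overlapped exactly 1 CBFB peak, and no CBFB peak was the partner of more than 1 of them.

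**Figure D1:**
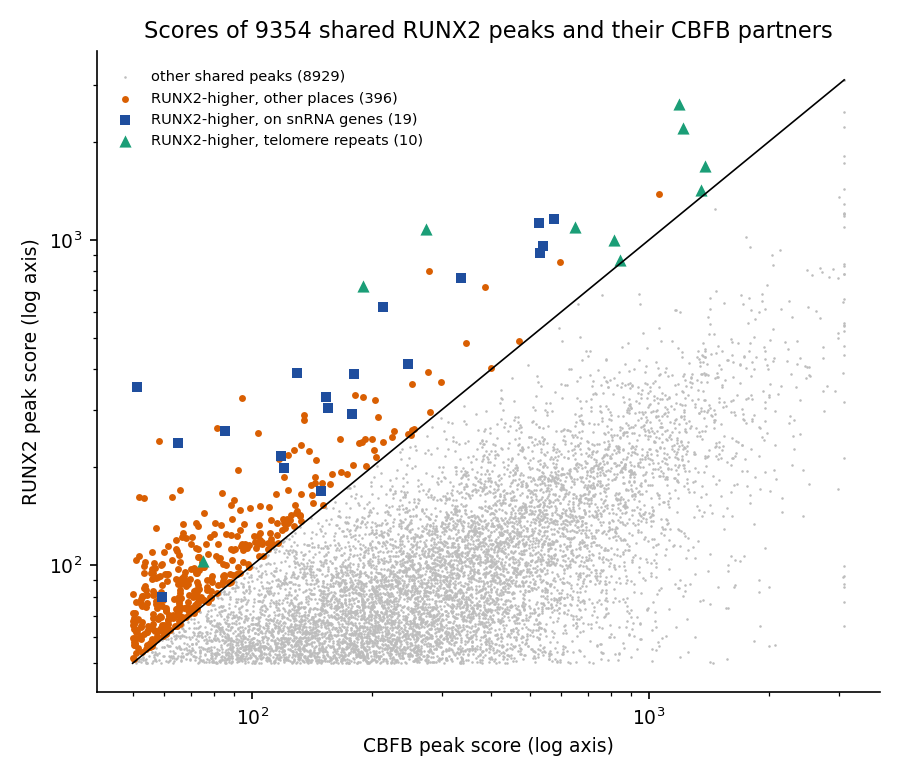
RUNX2 score (vertical, log axis) against the score of the CBFB partner (horizontal, log axis) for 9354 shared RUNX2 peaks. The line marks equal scores, and the 425 RUNX2-higher peaks lie above it by selection, with RUNX2 scores of 80.2 to 1160 for the 19 on snRNA genes (squares) and 103 to 2623 for the 10 with telomere repeats (triangles).

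The strongest RUNX2-higher peaks lay at telomere repeats and at U1 genes. The highest RUNX2 score was 2623 at the pseudogene DDX11L8 near the start of chromosome 12 (chr12:94907-95904), where the CBFB score was 1187. The next was 2204, with a CBFB score of 1220, at the start of chromosome 1 upstream of DDX11L2 (chr1:9836-10883). LINC02564 at the start of chromosome 18 followed with 1691 and 1386, and a peak at the start of chromosome 7 with 1425 and 1350. These peaks held 76, 67, 70 and 36 copies of the telomere repeat in that order. Their midpoints were 317 to 424 bp from a gap of the assembly.

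The fifth was the promoter of DSTYK, which encodes a protein kinase, with a RUNX2 score of 1379 and a CBFB score of 1057 (chr1:205180364-205181501). The sixth, with 1160 and 575, covered the U1 gene RNU1-2, in an annotated intron of CROCC (chr1:17222048-17225305). The seventh, with 1127 and 527, covered the U1 copy RNU1-27P on chromosome 14 (chr14:35015425-35017734). The remaining 3 of the first 10 again held telomere repeats, in an intron of a long non-coding RNA gene on chromosome 3 (1092 and 650), near the end of chromosome 2 (1078 and 275) and at the start of chromosome 4 (998 and 814). Of the 20 RUNX2-higher peaks of highest RUNX2 score, 9 held telomere repeats, 6 overlapped snRNA genes and 1 had a RUNX core within 100 bp of its midpoint. Over all RUNX2-higher peaks these shares were 2.35%, 4.47% and 28.5%. The ranking used a score that also chose the peaks. The other shared peaks of highest RUNX2 score were not counted in this way, so a trait of high RUNX2 scores cannot be told apart here.

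Telomere repeats were counted as copies of TTAGGG or CCCTAA in the whole RUNX2 peak, and 10 copies were required. Both this class and the overlap with snRNA genes were defined after the strongest peaks had been seen. In all, 12 shared peaks met this limit. Of these, 10 were RUNX2-higher, where 4.54% of all shared peaks were RUNX2-higher. They made up 2.35% of the RUNX2-higher peaks (1.13 to 4.28). Of the other shared peaks 2 met the limit, or 0.0224% (0.00271 to 0.0809). The 2 others were a peak in an intron of BET1L and the peak at the start of chromosome 5. The BET1L peak had a RUNX2 score of 171 and a CBFB score of 533. At the chromosome 5 peak both scores were 3100, the highest value in the lists, so the RUNX2 score could not be the higher.

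Of the 25 shared peaks that overlapped an annotated snRNA gene, 19 were RUNX2-higher. This was 4.47% of the RUNX2-higher peaks (2.71 to 6.89) and 0.0672% of the other shared peaks (0.0247 to 0.146), where 4.54% of all shared peaks were RUNX2-higher. Genes for U1 made up most of them, with 15 of 17 shared peaks. RNU1-1 had a RUNX2 score of 912 and a CBFB score of 532, RNU1-4 had 764 and 335, and RNU1-28P had 955 and 539. In the cluster of variant U1 genes on the long arm of chromosome 1, the RUNX2-higher peaks had RUNX2 scores from 216 at RNVU1-9 to 416 at RNVU1-8. RNVU1-18 had a RUNX2 score of 354 and a CBFB score of 51.3, the highest ratio of all RUNX2-higher peaks at 6.90. The U1 genes under the 2 other shared peaks were RNVU1-6 (92.2 and 204) and RNU1-108P (213 and 1491).

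Other spliceosomal RNA genes were also found under RUNX2-higher peaks. The peak over RNU5E-1 and RNU5E-4P, copies of U5, had a RUNX2 score of 623 and a CBFB score of 214. RNU2-2P, a U2 gene in an annotated intron of WDR74, had 237 and 65.2. RNU5A-1 had 80.2 and 59.5, and RNU4ATAC, the U4 RNA of the minor spliceosome, had 169 and 149. In contrast, the shared peaks over RN7SK (61.9 and 101), RNU6ATAC (54.8 and 148), RNU6-951P (208 and 397) and a U6 copy upstream of CHCHD3 (107 and 286) had the higher CBFB score.

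Many U1 genes are near-identical copies, and 8 of the 13 compared, RNU1-1 included, had the sequence of RNU1-1 at 163 or more of 164 bases. Reads from the bodies of these 8 can hardly be told apart, and the same holds for reads from telomere repeats alone. The other 5 differed more or had another length. The peaks over U1 genes also reached well beyond the bodies. How far reads from that sequence can be told apart was not examined, so which copy was bound is uncertain. How the authors placed reads that match several sites is not given in the sources used here, and its part in these scores was not tested. In all, 29 RUNX2-higher peaks lay within 100 kb of an assembly gap (a run of unknown bases of at least 1 kb, or a chromosome end), which was 6.82% (4.62 to 9.65) against 1.53% (1.29 to 1.81) of other shared peaks, a difference of 5.29 percentage points (Newcombe 95% interval 3.24 to 8.10). Without peaks on snRNA genes or with telomere repeats the shares were 3.03% and 1.51%, and the difference was 1.52 points (0.199 to 3.72). Apart from the 19 RUNX2-higher peaks on snRNA genes and the 10 with telomere repeats, 396 were left. The core and TSS differences below are given with and without both classes.

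RUNX2-higher peaks held the RUNX core less often than other shared peaks. The core TGTGGT, on either strand, was found within 100 bp of the midpoint in 121 RUNX2-higher peaks, or 28.5% (24.2 to 33.0), and in 44.6% (43.6 to 45.7) of other shared peaks. The difference was -16.2 percentage points (-20.4 to -11.6). Windows of equal size placed 2 kb away on each side held it in 14.1% and 12.5% for RUNX2-higher peaks. For other shared peaks they held it in 14.4% and 13.8%, so each class taken as a whole was above its flanks. This did not extend to every part of the RUNX2-higher peaks. Those within 1 kb of a gene start (12.5%, 8.0 to 18.3) were near the flank shares of the class. So were those in the highest of 5 equal groups by RUNX2 score (13.4%, 7.33 to 21.8). Flanks of these parts were not counted apart. In the whole peak the shares for all RUNX2-higher and all other shared peaks were 61.2% and 79.9%. The form with a further T, TGTGGTT, which contains the core, was found in 13.2% (10.1 to 16.8) and 24.5% (23.6 to 25.4). Without peaks on snRNA genes or with telomere repeats, 29.5% of RUNX2-higher and 44.7% of other shared peaks held the core.

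Around the midpoint of the CBFB partner in place of the RUNX2 peak, the core was found in 35.1% (30.5 to 39.8) of RUNX2-higher and 41.6% (40.6 to 42.6) of other shared peaks. The difference of -6.55 points (-11.0 to -1.79) was smaller than at the RUNX2 midpoint. The core was also placed off the midpoint in both classes, toward lower coordinates. In other shared peaks it was most frequent 80 to 40 bp before the midpoint, in 16.3% of peaks per 40-bp bin, and in RUNX2-higher peaks 120 to 80 bp before it, in 10.8%. In the 200 bp before the midpoint 33.9% of RUNX2-higher and 52.9% of other shared peaks held a core. In the 200 bp after it, these shares were 18.8% and 25.4%.

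**Figure D2:**
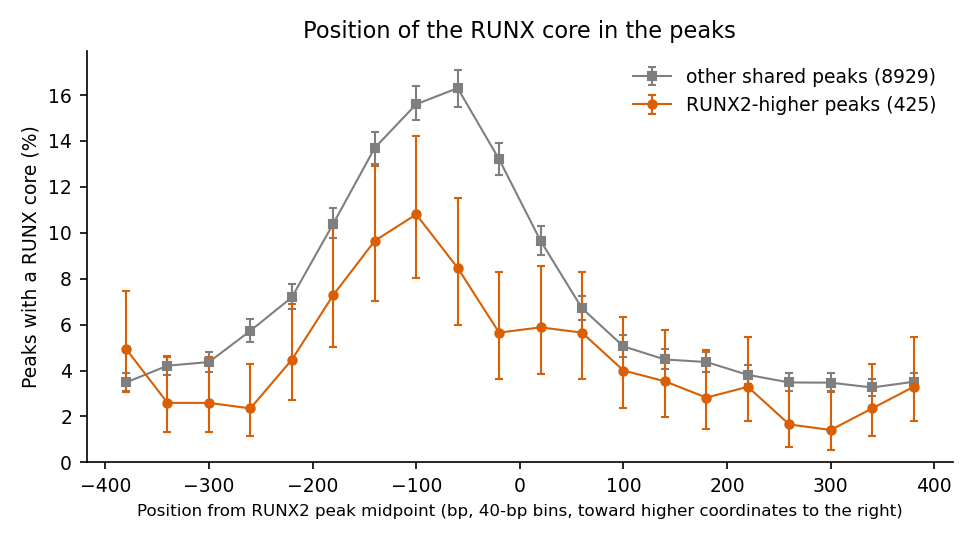
Share of peaks (%) with a RUNX core in each 40-bp bin, by distance from the RUNX2 peak midpoint in bp, with exact 95% intervals as bars. The maximum lies before the midpoint in both classes, at 10.8% for RUNX2-higher peaks and 16.3% for other shared peaks.

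Among the RUNX2-higher peaks with a core near the midpoint, the highest RUNX2 score was that of LINC01934, 723 with a CBFB score of 190 (chr2:182140291-182140873), an interstitial site that also held 10 telomere repeats. A peak in an intron of BCL9, which encodes a coactivator of β-catenin in Wnt signalling, had 224 and 139 and 3 cores. A peak near the hair keratin-associated gene KRTAP5-6 had 225 and 203 and 4 cores. CRYBG1 had 203 and 180, and the peak named by RPS23P5 had 202 and 194.

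The other motifs of a fixed panel were searched on both strands in the same windows. AP-1 sites (TGANTCA), bound by FOS and JUN proteins, were found in 8.71% (6.2 to 11.8) of RUNX2-higher and 13.5% (12.8 to 14.3) of other shared peaks, a difference of -4.82 points (-7.26 to -1.68). GC boxes (GGGCGG), bound by SP1 and related factors at many promoters, were found in 18.8% (15.2 to 22.9) and 13.4% (12.7 to 14.1), a difference of 5.46 points (1.96 to 9.51). The TATA form TATAAA was found in 5.65% and 9.06%, a difference of -3.41 points (-5.34 to -0.732). For TEAD (GGAATG, 12.9% and 15.8%), ETS (CCGGAAG, 4.0% and 2.80%), the E-box (CACGTG, 1.88% and 3.20%) and CTCF (AGGNGGC, 17.2% and 17.3%) the interval of the difference included 0. A match is a run of letters and not a shown binding site.

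**Figure D3:**
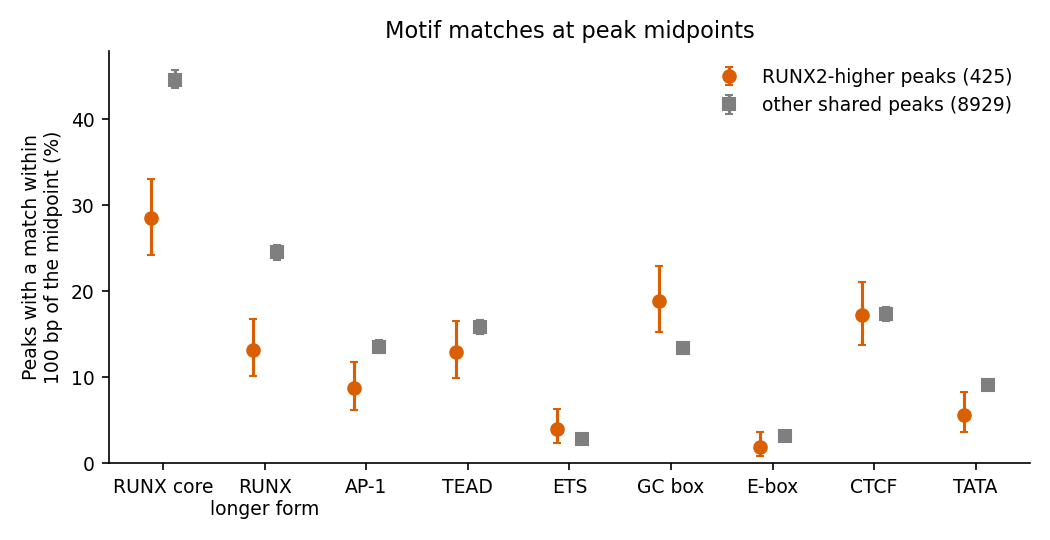
Share of peaks (%) with each motif within 100 bp of the midpoint in 425 RUNX2-higher (circles) and 8929 other shared peaks (squares), with exact 95% intervals as bars. The RUNX core differed most, at 28.5% against 44.6%, and the GC box was more frequent in RUNX2-higher peaks, at 18.8% against 13.4%.

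RUNX2-higher peaks lay at gene starts more often. The midpoint was within 1 kb of an annotated transcription start site (TSS) in 176 of them, or 41.4% (36.7 to 46.3), against 25.7% (24.8 to 26.6) of other shared peaks. The difference was 15.7 points (11.1 to 20.6), and 14.5 points (9.72 to 19.5) without peaks on snRNA genes or with telomere repeats. A start of a protein-coding gene lay within 1 kb of 33.2% and 20.4%, and a start of a long non-coding RNA gene within 1 kb of 11.1% and 7.57%. Of the 176 peaks, 74 had a midpoint within 100 bp of the start, 92 were upstream of it, and the median distance was 132 bp, against 155 bp for other shared peaks at a TSS. By the place of the midpoint, 49.9% of RUNX2-higher and 57.8% of other shared peaks lay in introns, and 34.6% and 29.6% between genes. Between genes means outside every annotated gene body. It includes peaks just upstream of a start, such as those at DSTYK (103 bp upstream) and MED23 (60 bp), which were not counted apart.

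After DSTYK, the protein-coding starts with the highest RUNX2 scores belonged to genes of varied function. These were ranked after the values were seen. USP30, a mitochondrial deubiquitinase, had a RUNX2 score of 854 and a CBFB score of 597. WDR24, a subunit of a complex that activates mTORC1 in response to amino acids, had 719 and 386. LAMB2, the laminin β2 chain of basement membranes, had 490 and 470. MPLKIP had 482 and 346, and TPR, a protein of the nuclear pore basket, had 403 and 401.

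Other starts below these in score were picked as examples after the values were seen. MED23, a subunit of Mediator, had 360 and 253, and SMARCD2, a subunit of the SWI/SNF remodelling complex, had 322 and 204. NELFA, a subunit of the negative elongation factor, had 259 and 228, and KDM1A, a histone demethylase, had 227 and 128. NUF2, a kinetochore protein, had 366 and 300. None of these 5 peaks had a RUNX core within 100 bp of its midpoint, while MED23, SMARCD2, KDM1A and NUF2 had a GC box there. The GC box of MED23 and that of MPLKIP are shown on the + strand in capitals, as examples of promoter sites without a core near the midpoint.
MED23, chr6:131949443-131949482: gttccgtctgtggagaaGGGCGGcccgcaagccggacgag
MPLKIP, chr7:40174307-40174346: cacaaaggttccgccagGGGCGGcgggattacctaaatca

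Gene starts were also frequent among the highest score ratios. SPHK2, a sphingosine kinase, had a RUNX2 score of 241 and a CBFB score of 58.2 at its start (ratio 4.14). WWOX, an oxidoreductase gene in a common fragile site, had 264 and 81.5 (3.24). NCAM1, a neural cell adhesion molecule, had 161 and 53.4 (3.01), and a peak 1132 bp upstream of the adhesion receptor gene ADGRL1 had 162 and 52.0 (3.13). A peak in ENSG00000259522 on chromosome 14 had 327 and 94.4 (3.46). The others of the 10 highest ratios were RNVU1-18, RNVU1-16 (259 and 85.7), RNU2-2P, LINC01934 and the end of chromosome 2.

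The lower share of the core was seen at gene starts and away from them. Within 1 kb of a TSS, 12.5% (8.0 to 18.3) of RUNX2-higher and 26% (24.2 to 27.9) of other shared peaks held the core, a difference of -13.5 points (-18.0 to -7.57). Farther from a TSS, 39.8% (33.6 to 46.1) and 51.1% (49.9 to 52.3) held it, a difference of -11.3 points (-17.3 to -5.01). For the GC box the intervals within these classes included 0. It was found in 36.4% and 34.5% of the peaks near a TSS, a difference of 1.91 points (-5.12 to 9.49), and in 6.43% and 6.07% of those farther away, a difference of 0.353 points (-2.15 to 4.15). For AP-1 the difference was -5.18 points (-7.19 to -1.40) near a TSS and -2.58 points (-6.29 to 2.22) farther away, where the interval included 0.

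GC content differed little, while the CpG ratio was higher in RUNX2-higher peaks. The GC content within 100 bp of the midpoint was 52.0% ± 10.7 (SD over 425 peaks) in RUNX2-higher and 50.8% ± 10.4 (SD over 8929 peaks) in other shared peaks, a difference of 1.21 points (0.171 to 2.25). Near a TSS the means were 59.3% and 59.0%. Farther away they were 46.9% and 48.0%, so the difference turned to -1.09 points (-2.17 to -0.00614). Weighted over peaks near and far from a TSS it was -0.521 points (-1.38 to 0.342). The ratio of observed to expected CpG in the whole peak was 0.434 in RUNX2-higher and 0.322 in other shared peaks, a difference of 0.112 (0.0839 to 0.14). Near a TSS it was 0.674 and 0.582, a difference of 0.0922 (0.0579 to 0.127). Farther away it was 0.264 and 0.232, a difference of 0.0322 (0.00645 to 0.058).

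Across the whole range of score ratios, the core and gene starts changed gradually before the limit of 1. The 9354 shared peaks were divided into 10 equal groups by ratio, the highest of which held all 425 RUNX2-higher peaks. The core was found in 46.9% of the peaks of the lowest group, in 51.6% of group 3, in 39.7% of group 9 and in 32.3% (29.3 to 35.4) of group 10. A TSS lay within 1 kb of 25% in the lowest group, of 21.2% in group 3, of 29.9% in group 9 and of 37.1% (34 to 40.3) in group 10. AP-1 sites varied between 11.3% and 14.7% with no such course.

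**Figure D4:**
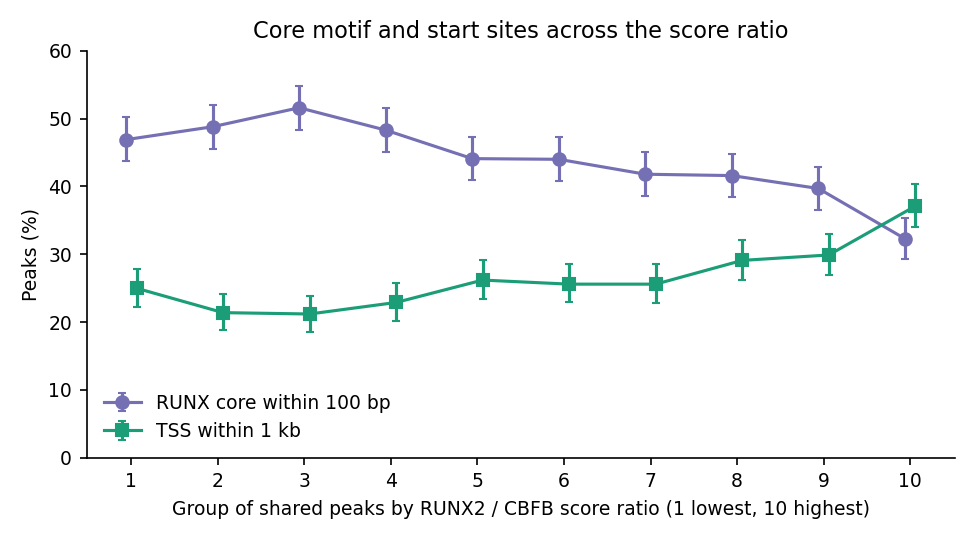
Share of peaks (%) with a RUNX core within 100 bp (circles) and with a TSS within 1 kb (squares) in 10 equal groups of shared peaks by the ratio of RUNX2 to CBFB score, with exact 95% intervals as bars. From group 3 to group 10 the core fell from 51.6% to 32.3% and the TSS share rose from 21.2% to 37.1%.

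The difference in both features was largest among the highest RUNX2 scores. In 5 equal groups by RUNX2 score, RUNX2-higher peaks were 1.44% of group 1, the lowest, and 4.92% to 5.93% of the others. The core was found in 51.9% (31.9 to 71.3) of the 27 RUNX2-higher peaks of group 1, in 31.5%, 33.3% and 28.6% of those of groups 2 to 4, and in 13.4% (7.33 to 21.8) of the 97 in group 5. Other shared peaks stayed between 42.8% and 46.0%. A TSS lay within 1 kb of 14.8% (4.19 to 33.7) of the RUNX2-higher peaks of group 1, of 38.0%, 32.4% and 44.9% of those of groups 2 to 4, and of 58.8% (48.3 to 68.7) of those of group 5, while other shared peaks stayed between 23.6% and 27.4%. In group 1 the intervals of both differences included 0, and the direction was opposite to that in groups 2 to 5. Without peaks on snRNA genes or with telomere repeats, the 70 RUNX2-higher peaks left in group 5 held the core in 14.3% (7.07 to 24.7) and lay within 1 kb of a TSS in 58.6% (46.2 to 70.2), against 46.1% and 23.5% of other shared peaks.

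**Figure D5:**
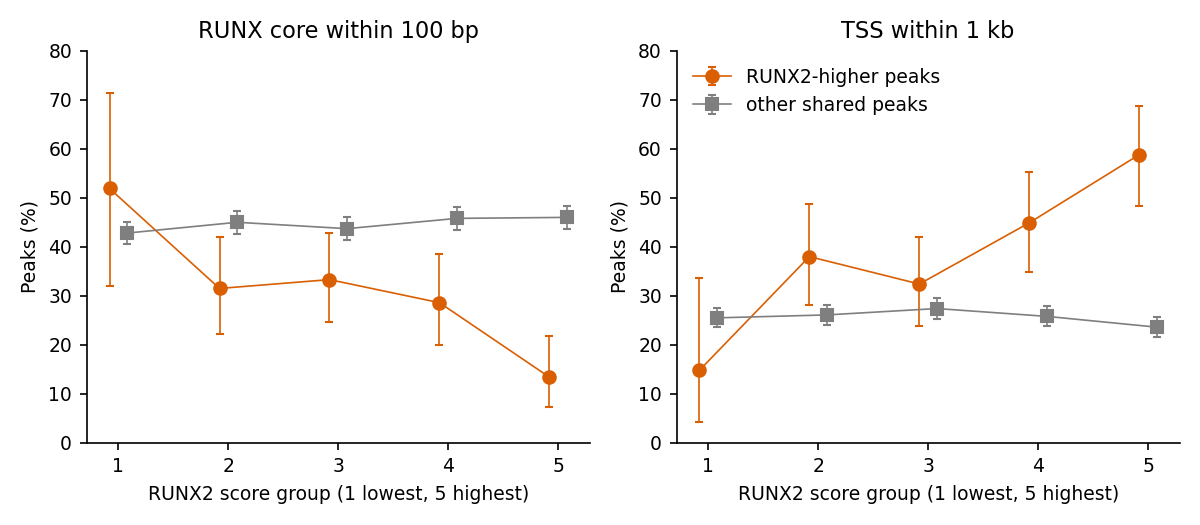
Share of peaks (%) with a RUNX core within 100 bp (left) and with a TSS within 1 kb (right) by group of RUNX2 score, for RUNX2-higher (circles) and other shared peaks (squares), with exact 95% intervals as bars. In group 5 the core was found in 13.4% against 46.0% and a TSS in 58.8% against 23.6%.

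Differences in the same direction were found among peaks whose CBFB partners were weak in both classes. In the lowest of 5 equal groups by CBFB partner score, which held 361 of the RUNX2-higher peaks, the core was found in 31.3% (26.6 to 36.4) of them and in 38.8% (36.3 to 41.3) of 1510 other shared peaks, a difference of -7.51 points (-12.7 to -1.98). A TSS lay within 1 kb of 39.3% and 28.0%, a difference of 11.3 points (5.90 to 16.9).

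No RUNX2-higher peak lay within 25 kb of the bone genes listed here, which were few. Within 25 kb of the gene body, 0 of 46 osteoblast and bone matrix genes had a RUNX2-higher peak, which allows a share of up to 6.52% (3 counts of the total), although 24 had a shared peak. The count was also 0 for 24 genes of the RUNX family, CBFB and its corepressors (14 with a shared peak), 17 AP-1 genes (10) and 20 YAP and TEAD genes (12). In that order this allows shares of up to 12.5%, 17.6% and 15%. Over all 20098 protein-coding genes, 622 or 3.09% had a RUNX2-higher peak and 34% had a shared peak. Of the protein-coding genes with a shared peak, 9.10% had a RUNX2-higher peak. Lists of this size would hold few at these rates. At SP7, the osteoblast factor osterix, the highest score ratio of 2 shared peaks was 0.892. At ALPL, alkaline phosphatase, it was 0.358 over 7 peaks, at MYC 0.236 for 1 peak, and at CBFB 0.401 for 1 peak. At the RUNX2 gene itself it was 0.997 over 8 peaks, just under the limit.

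Other lists held a few genes with a RUNX2-higher peak, at shares near the 3.09% of all protein-coding genes. The share was 2.63% for p53, cell cycle and survival genes, 4.69% for replication-dependent histone genes and 3.53% for cytosolic ribosomal protein genes. Of 38 genes of p53, the cell cycle and survival, CDKN1B, which encodes the cell cycle inhibitor p27, was near a peak in APOLD1 (RUNX2 score 85.4, CBFB score 53.4). Of 64 replication-dependent histone genes, H2AC17, H2BC17 and H3C12 were near 1 peak (82.6 and 58.9), and 59 had a shared peak. Of 85 cytosolic ribosomal protein genes, 3 had a RUNX2-higher peak within reach: RPS27 (123 and 91.8), RPL29 (75 and 65.4) and RPL18, through the peak at SPHK2. Among 1897 snRNA genes 52, or 2.74%, had a RUNX2-higher peak within 25 kb, against 3.09% of all protein-coding genes. Of the snRNA genes with a shared peak these were 15.3%, against 9.10% for protein-coding genes and 7.58% for snoRNA genes. Genes within reach of the same peak were each counted.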

How the data were processed

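ChIP-seq was performed on SAOS2 cells with a RUNX2 antibody and a CBFB antibody, 1 library each, and peaks were identified by MACS. The submitters' processing notes name CASAVA 1.8.2, MACS 1.4.1 and the hg19 build. The aligner, the treatment of reads that match several sites, the calling limit and the use of the input were not given in the sources used here. The authors deposited 1 peak list per antibody with a score, which was read here as the MACS score, -10 times log10 of the p-value, because the values ran from 50 to 3100. The lists hold no read counts, so the depth of the libraries is unknown.

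A RUNX2 peak was called shared if it had 1 bp or more in common with a CBFB peak, and the overlapping CBFB peak of highest score was its partner. Peaks were annotated with the GRCh37 sequence and GENCODE release 44 mapped to GRCh37. Motifs were searched on both strands within 100 bp of the midpoint, and genes were linked to peaks within 25 kb. Shares carry exact Clopper-Pearson 95% intervals and their differences Newcombe 95% intervals. Differences of means carry normal 95% intervals over peaks. Groups came from the sample titles. No test was run, and the pairing and comparison steps were tested on simulated lists.

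Peaks named by rule were the 10 of highest RUNX2 score, the 10 of highest score ratio, the 3 to either side of a ratio of 1, those near SP7, ALPL, MYC, RUNX2 or CBFB, and up to 3 per gene list. Peaks at protein-coding starts and those with a core were ranked after their values were seen, as were the snRNA and telomere classes. The members of the class and the gene lists were chosen with earlier results of these data known. Alternatives covered the overlap, the partner, the score limits, weighting by score, width and TSS, and the reach of each feature. Analyses used Python 3.11.15, pandas 2.3.3, scipy 1.17.1, statsmodels 0.14.6 and pysam 0.24.0. Telomere repeat sequences of the peaks are not reported here.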

Additional observations from a re-analysis of the deposited data

How the results depend on the processing

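The share of RUNX2-higher peaks and the differences from other shared peaks in the RUNX core, TSS, GC content and assembly gaps were computed under 53 alternatives, 8 of them chosen after seeing the data. The core difference kept its direction with an interval that excluded 0 in 14 of 14 alternatives (-19.9 to -10.7 points). The same held for the TSS difference in 11 of 11 (10.6 to 24.4 points) and the gap difference in 9 of 9 (1.52 to 15.9 points). These alternatives did not cover every split given above. The core difference was -6.55 points around the CBFB midpoint and -7.51 points in the lowest CBFB partner score group. In the lowest RUNX2 score group the direction was opposite, with 9.01 points (-9 to 26.6) for the core and -10.7 points (-19.9 to 7.04) for the TSS. The share of 4.54% was 5.36% when 50% of each peak had to lie in the overlap, 1.10% when the RUNX2 score had to be 1.5 times the CBFB score, 15.1% by percentile rank within each list, and 5.18% for RUNX2 scores of at least 100. By rank 1417 peaks were selected, which held all 425 RUNX2-higher peaks. This follows from the lists, since a given score ranked higher among RUNX2 than among CBFB peaks. For example, a RUNX2 score of 71.49 was at percentile 37.5 and a CBFB score of 71.41 at percentile 22.3. The alternative with exactly 1 CBFB peak could hardly change a result, since it removed no RUNX2-higher peak and 18 other shared peaks had 2. The GC difference of 1.21 points was 1.83 points with an interval that included 0 at 1.5 times the score, and it reversed to -0.521 points when weighted by TSS. The gap difference moved to 1.52 points without peaks on snRNA genes or with telomere repeats. With the core searched in the 200 bp before the midpoint, the difference was -19.0 points. No paired analysis was possible because there was 1 library for each antibody. The unknown depth of the libraries limits any reading of score levels between them.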

Other observations

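Over all shared peaks 4.54% were RUNX2-higher, and the chromosomes named here were picked after the values were seen. The share varied between chromosomes. It was highest on chromosome 19, with 24 of 288 peaks or 8.33% (exact 95% interval 5.41 to 12.1), 7.64% (4.01 to 13.0) on chromosome X with 12 of 157, and 6.52% (5.22 to 8.03) on chromosome 1, which held 82 of them. Without peaks on snRNA genes or with telomere repeats the share on chromosome 1 was 5.47%, and that on chromosome 19 was again 8.33%. It was lowest on chromosome 10, with 4 of 304 peaks or 1.32% (0.360 to 3.33). Chromosome 6, which carries the RUNX2 gene and the main histone cluster, had 2.38% (1.48 to 3.61). On chromosome X and on every chromosome not named here the interval included 4.54%.

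Within 25 kb, 20 of 1455 snoRNA genes, 42 of 3029 miRNA genes, 28 of 2025 genes of other small RNAs and 9 of 532 rRNA genes had a RUNX2-higher peak. In that order this was 1.37%, 1.39%, 1.38% and 1.69%, against 3.09% of all protein-coding genes. Of the genes of each kind with a shared peak, these were 7.58%, 7.38%, 7.02% and 9.09%, against 9.10% of protein-coding genes. SNORD3B-1, a gene for the U3 RNA of ribosomal RNA processing, had a RUNX2 score of 162 and a CBFB score of 63.0, and a peak near a U3 copy in an intron of TEX14 had 244 and 200.

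The RUNX2 peaks themselves had similar widths, with a median of 928 bp in RUNX2-higher and 945 bp in other shared peaks. The CBFB partners had a median of 998 bp and 1381 bp. A RUNX2-higher peak lay wholly inside its partner in 43.5% of cases (38.8 to 48.4), against 84.4% (83.6 to 85.1) for other shared peaks. Widths come from the same peak calls as the scores that chose the peaks.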
